A study of Mus musculus with 9 samples.

Results

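Transcripts of 8 scavenger and mannose receptors (Mrc1, Cd163, Colec12, Msr1, Scarb1, Scarb2, Stab1 and Cd68) were compared across 9 expanded mouse macrophage lines. The members were taken by gene symbol, with earlier results of these data known, and all 8 were found among the 24411 genes of the deposited table. Yolk sac taken at E9.5 gave the 3 YS lines, fetal liver taken at E14.5 gave the 3 FL lines, and the bone marrow of adults gave the 3 BM lines. All 9 came from C57BL/6 mice, carried no introduced allele, and were kept in the same medium with 100 ng/mL recombinant human M-CSF, the growth factor on which they depend. Each line was a culture of macrophages that kept growing through repeated detachment and reseeding. A line thus stands for long-term growth in M-CSF and not for a macrophage taken from tissue. The start of the cultures differed by group: BM and FL cells began in dishes and YS cells in small wells, at other densities. Most adherent BM and FL cells stopped growing and began to die before colonies appeared, while YS cells did not always stop. The time to stable growth differed too. Origin cannot be told apart from these differences in culture. The starting cells were pooled from at least 2 mice, and the study counted each separate dish or well as its own line. Neither the labels nor that definition states that the lines of a group came from separate pools of mice. The p-values measure the spread between these lines, which may be technical.

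Scavenger receptors take up modified lipoproteins, dying cells, microbial products and spent plasma proteins, and pass them through endosomes to the lysosome. The mannose receptor CD206, encoded by Mrc1, is a C-type lectin that binds mannose, fucose and sulfated sugars, and CD163 takes up haptoglobin-hemoglobin complexes. The class A receptors carry a collagen-like stalk: Msr1 encodes SR-A1, a receptor for modified low-density lipoprotein, and Colec12 encodes SR-A4, which ends in a collectin-type lectin domain. The class B receptors are SR-B1 (Scarb1), which moves cholesteryl esters out of high-density lipoprotein, and LIMP-2 (Scarb2), a membrane protein of the lysosome. Stabilin-1 (Stab1) clears extracellular matrix proteins and apoptotic cells, and macrosialin (Cd68) is a glycoprotein of late endosomes and lysosomes. Resident tissue macrophages of several organs are known for Mrc1, Cd163 and Stab1, and Cd68 is used as a general marker of macrophages.

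Promoter windows are shown for Mrc1, called in both comparisons with BM lines, for Stab1, called between FL lines and each other group, and for Cd163, listed at or near 0 in every line. They are printed as RefSeq gives them (GRCm38.p6), from 250 bases before the annotated start to the base before it, on the strand of the gene. They lie at Mrc1 (chr2:14229164-14229413, + strand), Stab1 (chr14:31168642-31168891, - strand) and Cd163 (chr6:124304401-124304650, + strand). The capitals mark the letters GAGGAA on either strand, the core bound by PU.1, the transcription factor that sets up macrophage genes.
Mrc1: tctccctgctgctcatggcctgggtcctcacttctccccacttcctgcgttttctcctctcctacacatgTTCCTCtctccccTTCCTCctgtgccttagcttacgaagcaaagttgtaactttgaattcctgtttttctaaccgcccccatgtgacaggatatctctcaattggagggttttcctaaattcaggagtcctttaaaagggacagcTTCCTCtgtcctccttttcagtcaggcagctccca
Stab1: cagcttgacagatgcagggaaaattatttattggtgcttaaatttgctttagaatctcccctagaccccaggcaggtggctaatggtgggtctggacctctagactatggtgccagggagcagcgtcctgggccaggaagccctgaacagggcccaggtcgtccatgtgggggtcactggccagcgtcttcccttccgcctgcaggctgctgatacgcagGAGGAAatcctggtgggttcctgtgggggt
Cd163: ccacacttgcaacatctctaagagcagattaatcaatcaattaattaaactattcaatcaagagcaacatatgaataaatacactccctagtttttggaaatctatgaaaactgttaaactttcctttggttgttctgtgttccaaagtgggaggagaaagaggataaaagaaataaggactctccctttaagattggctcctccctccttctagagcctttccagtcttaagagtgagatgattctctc
The Mrc1 window held 3 copies, 180, 167 and 35 bases before the start, all on the other strand and so written TTCCTC. The Stab1 window held 1 copy, 30 bases before the start, and the Cd163 window held 0. Among the other windows searched, Cd68 held 1 copy and Scarb2 held 0, and no entry was used for Msr1, Scarb1 and Colec12. Among all 32851 promoter windows of that length, 23.3% held at least 1 copy. Of the other letters searched on both strands, TGCTGA, a MAF half-site, occurred once each in Stab1 and Scarb2 and in 16.1% of all windows. The AP-1 letters TGANTCA occurred 2 times in Cd68 and in 6.75% of all windows. The start of the Cd68 window is less sure, since the bases checked just after it matched no GENCODE transcript of Cd68, unlike in the other windows. CCAAT occurred in all but Scarb2 of these 5 windows and in 33.8% of all windows, and TATAAA in 0 of them and in 12.4% of all windows. None of these matches overlapped. A match is a run of letters and not a measured binding site.

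Levels are given in TPM, reads divided by transcript length and scaled to a common library total by the authors, so that levels of different genes can be set side by side. TPM keeps no record of depth, and precision could be judged only from how far the 3 lines of a group lay apart. Differences were tested with limma on log2(TPM + 1) over all 9 libraries, a scale that understates changes of low genes, for the 11753 genes that reached 1 TPM in 3 or more libraries. Calls needed a change of more than 2-fold and a false discovery rate (FDR) below 0.1. YS and FL lines were each compared with the same 3 BM lines, so those comparisons share their control samples. Between 10977 and 11457 genes reached 1 TPM in a library. All 10 macrophage markers checked passed the filter, and Csf1r, the M-CSF receptor, lay between 1085.83 and 2441.25 TPM in every line. Of the 10, limma called 2 higher and 1 lower in YS than in BM lines, 3 higher in FL than in BM lines and 2 lower in YS than in FL lines. Fcgr1, an Fc receptor, was at 122.16 to 329.94 TPM in the YS lines, 110.13 to 171.94 in FL lines and 5.47, 42.10 and 1.68 in BM lines, and Aif1 at 70.90 to 177.25, 95.18 to 141.40 and 10.11, 23.47 and 6.53. Both were lower in BM lines, with BM line 2 above the other BM lines (differences of 4.65 and 3.16 for YS and 4.02 and 3.15 for FL against BM lines, limma adjusted p from 0.0026 to 0.014). The other calls were Lyz2 (-1.60 for YS against BM lines, lost without YS line 1 or any 1 BM line, and -2.37 for YS against FL lines, lost without FL line 2 or 3) and Mertk (1.99 for FL against BM lines and -1.82 for YS against FL lines). All 7 fibroblast markers stayed below 1 TPM in every line.

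One line stood apart in a way that touches the members. BM line 2 held 31 genes at 10 TPM or more that were below 1 TPM in both other BM lines, against 4 such genes in BM line 1 and 4 in BM line 3. Counted in the same way within their own groups, YS lines 1 to 3 held 4, 10 and 15 such genes. FL lines 1 to 3 held 15, 21 and 12. Mrc1 and Colec12 were among the 31 of BM line 2, and no member was among those of any other line. The hemoglobin transcripts Hba-a1 and Hba-a2 stood at 214.99 and 102.17 TPM in BM line 2, and at 0.30 TPM or less in the other BM lines. In YS line 2 they were listed at 0.00 and 4.52 TPM. Across the 45 genes that reached 20 TPM in YS line 2 while staying below 0.5 TPM in BM lines 1 and 3, the BM line 2 level was in the median 14.1% of the YS line 2 level, with quartiles of 10.7% and 17.7%. The same share taken against each of the other 5 YS and FL lines had medians from 3.24% to 8.38%, with wider quartiles. Mrc1 and Colec12 in BM line 2 were at 15.0% and 16.0% of YS line 2, and both are themselves among those 45 genes. Whether BM line 2 holds RNA carried over from another sample, and how much of its Mrc1 and Colec12 that would be, was not tested, and results for these genes are given with and without that line. In bulk RNA, fewer cells with a transcript and less of it per cell cannot be told apart.

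Most of the members were expressed in all groups, but the groups differed in which of them. Members called numbered 3 of the 7 tested between YS and BM lines (Mrc1, Colec12 and Msr1), all higher in YS lines, against 12.8% of all genes tested (7.57% higher and 5.22% lower). The higher share of those calls over all genes was 59.2%, and 48.7% with quantile normalization, under which the members called kept their direction. Between FL and BM lines 4 of 7 were called, the same names with Stab1, all higher in FL lines, against 10.3% of all genes (6.01% higher and 4.3% lower). Between YS and FL lines 1 of 7 was called, Stab1, lower in YS lines, against 3.79% of all genes (1.95% higher and 1.85% lower). The median log2 difference of the 7 members was 0.37, 1.90 and -0.64 in these comparisons, and that of all genes tested 0.11, 0.09 and 0.02. Groups did not overlap for 3, 5 and 3 of the 7 members, beside 49%, 49.5% and 26.1% of all genes.

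**Figure D1:**
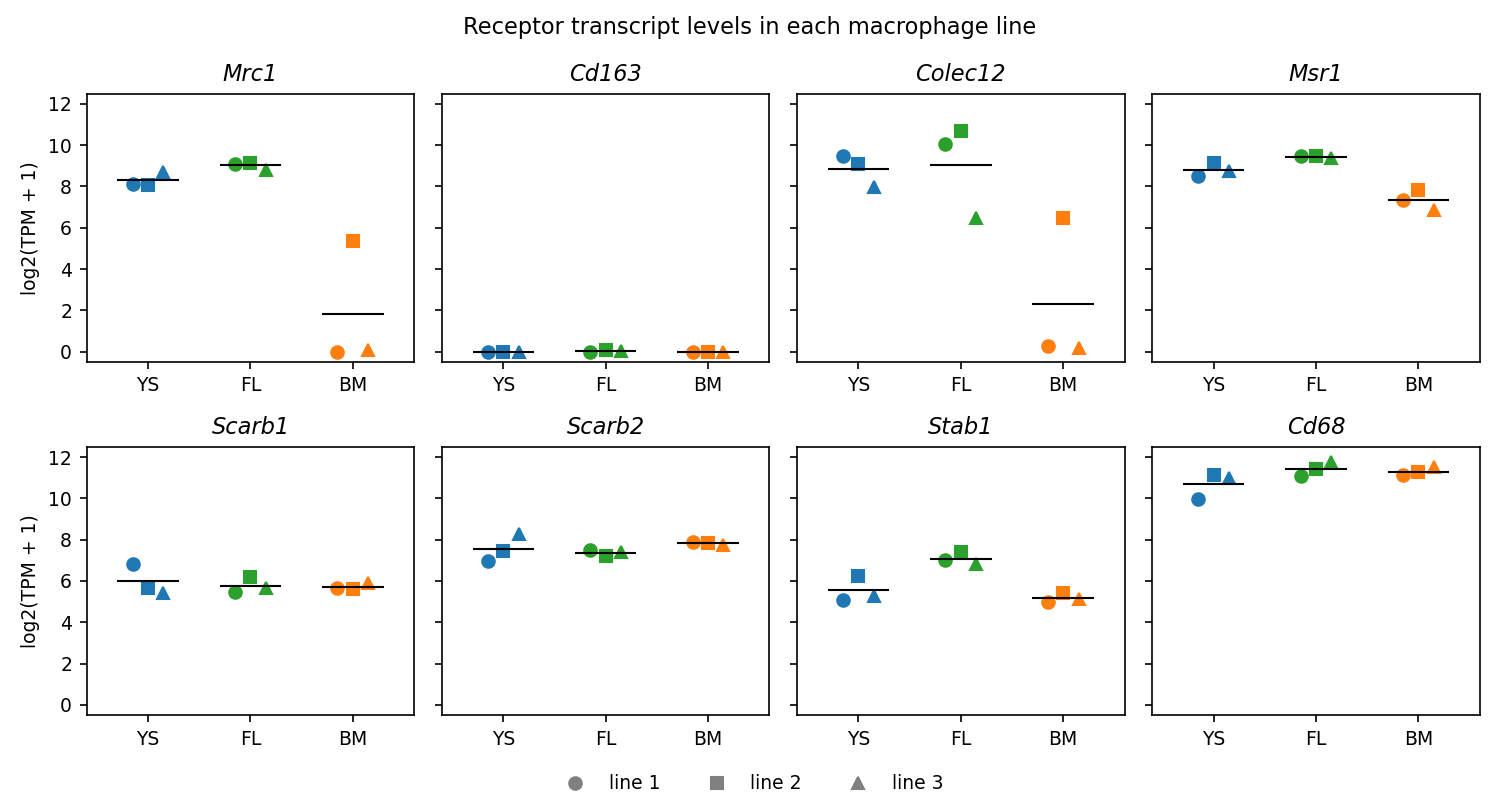
Level of each receptor as log2(TPM + 1) (vertical axis) in the YS, FL and BM lines (horizontal axis), with 1 marker per line, its shape giving the line number, and a bar at the group mean. Mrc1 and Colec12 lie near 0 in BM lines 1 and 3 and higher in BM line 2, Cd163 lies at 0.06 TPM or less everywhere, and Scarb1, Scarb2 and Cd68 differ less between the groups than Mrc1 or Colec12.

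Mrc1, the mannose receptor, was abundant in all embryonic lines and nearly absent from 2 of the 3 BM lines. It was at 278.06, 268.04 and 410.55 TPM in the YS lines 1 to 3 (mean 319 ± 79.5, SD, n = 3) and at 541.32, 566.57 and 447.26 TPM in FL lines (518 ± 62.9). BM line 1 was listed at 0.00, BM line 2 at 40.20 and BM line 3 at 0.06 TPM. Every YS and FL line was thus above every BM line, and even the lowest YS line held 6.67 times and the lowest FL line 11.1 times the level of BM line 2. On the log2 scale Mrc1 was 6.48 ± 1.22 (SE) higher in YS than in BM lines (95% interval 3.70 to 9.25, limma adjusted p = 0.0076) and 7.20 ± 1.22 higher in FL than in BM lines (4.42 to 9.97, adjusted p = 0.005). These were the tenth and the fifth largest differences among the 11753 genes. Without BM line 2 they were 8.25 and 8.97 (limma adjusted p = 2.85e-06 and 1.96e-06). Since the BM lines were near 0, the size of the difference moved with the constant added before the log, and with 0.1 TPM in place of 1 it was 8.50 and 9.22.

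All 3 FL lines held more Mrc1 than any YS line, but the difference of -0.72 ± 1.22 (95% interval -3.50 to 2.06) did not pass (limma adjusted p = 0.73). The spread of BM line 2 enters that error: without this line the same difference had an SE of 0.18 and a limma adjusted p of 0.0953, and it stayed under 2-fold. Within a group Mrc1 varied by no more than 1.53 times among YS lines and 1.27 times among FL lines.

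Colec12, which encodes the collectin-type receptor SR-A4, was the most variable member. YS lines held 700.28, 537.44 and 252.79 TPM (mean 497 ± 226, SD, n = 3), and FL lines held 1064.38, 1620.24 and 86.92 TPM (924 ± 776). BM lines held 0.22, 86.17 and 0.13 TPM. FL line 3 was thus 18.6 times below FL line 2 and stood at the height of BM line 2 (1.01 times), so that only the narrowest margin kept the FL and BM groups apart. Colec12 was 6.54 ± 1.70 higher in YS than in BM lines on the log2 scale (95% interval 2.67 to 10.40, limma adjusted p = 0.023) and 6.76 ± 1.70 higher in FL than in BM lines (2.89 to 10.62, adjusted p = 0.025). Without BM line 2 the differences were 8.61 and 8.83 (limma adjusted p = 0.00367 and 0.00316), and they passed under every alternative tried, with adjusted p up to 0.0891 and 0.0979. YS and FL lines overlapped and did not differ beyond their spread (-0.22 ± 1.70, 95% interval -4.09 to 3.64, limma adjusted p = 0.95). The SD among FL lines, 2.27 on the log2 scale, exceeded that of 99.4% of genes tested, whose median was 0.18.

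Mrc1 and Colec12 were alike between groups, but their ratio differed among the lines of the YS and FL groups. Colec12 exceeded Mrc1 2.52 and 2.01 times in YS lines 1 and 2 and 1.97 and 2.86 times in FL lines 1 and 2. In YS line 3 and FL line 3 the ratio was 0.616 and 0.194, and the lectin receptor with the higher transcript level was there Mrc1. BM line 2, the only BM line with enough of both to form a ratio, stood at 2.14.

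Stab1 and Colec12 are also known from endothelium, so endothelial markers were read beside them. The summed level of the 8 markers was 5.69 to 56.13 TPM in the YS lines, 19.37 to 53.57 in FL lines and 0.11 to 1.78 in BM lines. Kdr was at 0.29, 16.08 and 54.35 TPM in the YS lines, 17.37, 17.47 and 50.36 in FL lines, and at most 0.86 in BM lines. Pecam1 reached 4.91 TPM in YS line 1 and 8.17 TPM in YS line 2, made up most of the sum in YS line 1, and lay at 0.56 TPM or less in the other lines. Emcn was listed at 0 in every line, 4 of the 8 markers stayed below 1 TPM in all lines, and Cdh5, the cadherin of endothelial junctions, reached at most 1.38 TPM. Kdr and Cdh5 were called higher in FL than in BM lines (4.35 and 1.10), and both calls were lost without BM line 1 or BM line 3. The part of these endothelial transcripts in the receptor differences was not tested.

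Other marker lists were higher in 1 line or 1 group. The summed erythroid markers reached 331.57 TPM in BM line 2 alone, against as little as 0.66 TPM in another BM line and no more than 14.66 TPM in any YS or FL line. Granulocyte markers summed to 10.84 to 25.60 TPM in FL lines and to at most 5.00 TPM elsewhere, nearly all of it S100a8, and Elane and S100a9 were listed at 0. Osteoclast markers summed to 96.94 to 1286.11 TPM in BM lines, mostly Ctsk, and to at most 55.39 TPM in YS and 4.41 TPM in FL lines. Hepatocyte, mast cell and dendritic cell markers summed to at most 20.60, 1.33 and 7.86 TPM in any line. Ctsk was called lower in YS and FL than in BM lines (-7.95 and -7.08). Dcstamp, another osteoclast marker, was lower in FL than in BM lines (-2.25, lost without FL line 1, BM line 2 or BM line 3). It was higher in YS than in FL lines (4.04). S100a8 differed by -1.55 (YS against BM lines, lost without BM line 1), 1.98 (FL against BM) and -3.53 (YS against FL). Zbtb46, a dendritic cell marker, was higher in YS than in BM lines (1.05, lost under both other scalings). The part of these markers in the receptor differences was not tested.

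Msr1, encoding SR-A1, was higher in YS and in FL lines than in BM lines. The 3 YS lines held 358.19, 558.51 and 433.00 TPM (450 ± 101, SD, n = 3), the FL lines 702.09, 713.47 and 658.11 TPM (691 ± 29.2) and the BM lines 158.26, 222.78 and 114.54 TPM (165 ± 54.5). No group overlapped another, as was the case for 49% (YS and BM), 49.5% (FL and BM) and 26.1% (YS and FL) of all genes tested. Msr1 was 1.47 ± 0.24 higher in YS than in BM lines on the log2 scale, or 2.77-fold (95% interval 0.92 to 2.01, limma adjusted p = 0.0046). The difference between FL and BM lines was 2.11 ± 0.24, or 4.32-fold (1.56 to 2.66, adjusted p = 0.0011). YS lines were below FL lines by a difference of -0.64 ± 0.24 (-1.19 to -0.10), which did not pass (limma adjusted p = 0.14). FL lines agreed closely in Msr1, with a highest to lowest ratio of 1.08. Of all members, Msr1 held the narrowest errors among those called in both comparisons with BM lines.

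Stab1, the matrix and apoptotic cell receptor stabilin-1, was the member that set FL lines apart. FL lines held 129.62, 165.95 and 111.86 TPM (136 ± 27.6, SD, n = 3), above all other lines. YS lines held 33.07, 74.47 and 38.23 TPM (48.6 ± 22.6) and BM lines 30.55, 42.23 and 33.51 TPM (35.4 ± 6.07), and these overlapped. Stab1 was 1.90 ± 0.29 higher in FL than in BM lines on the log2 scale, or 3.74-fold (95% interval 1.24 to 2.57, limma adjusted p = 0.0033). It was lower in YS than in FL lines by a difference of -1.54 ± 0.29, or 2.9-fold (-2.20 to -0.87, limma adjusted p = 0.032). That call was lost when FL line 2 was left out (-1.38, adjusted p = 0.104) and when YS and FL lines were fitted alone (adjusted p = 0.126). YS and BM lines did not differ beyond their spread (0.37 ± 0.29, -0.30 to 1.03, limma adjusted p = 0.37).

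**Figure D2:**
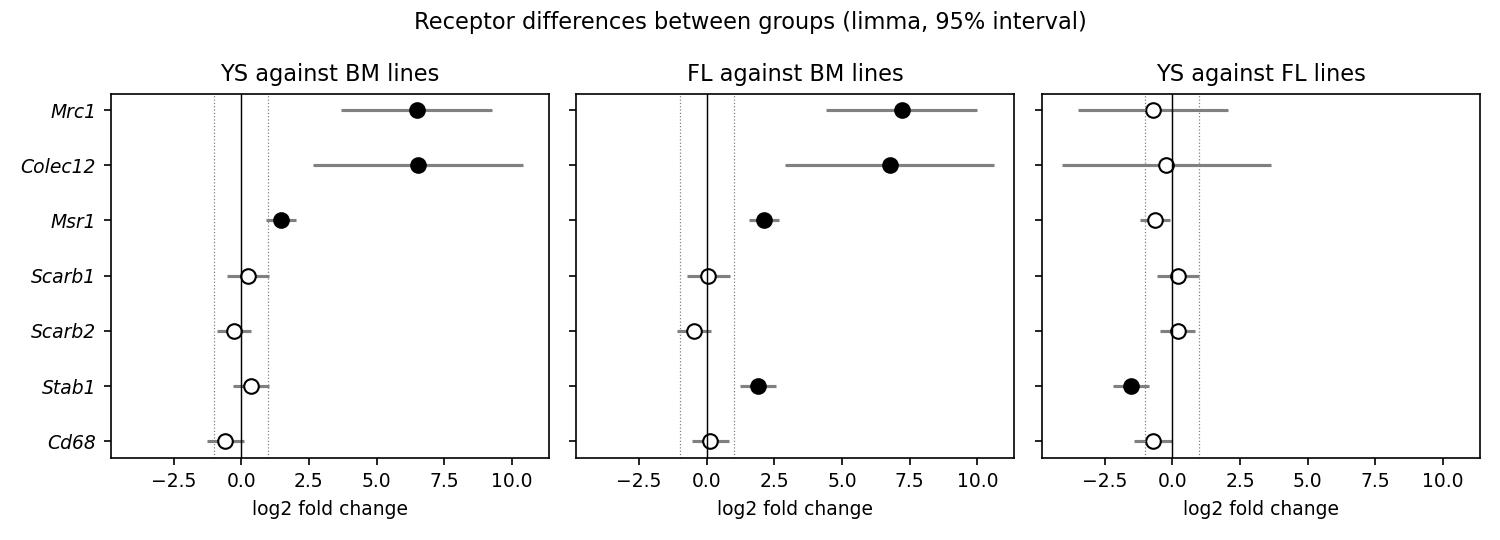
Log2 fold change (horizontal axis) of the 7 receptors tested (vertical axis) in each comparison, with its 95% interval from limma; filled points were called, the solid line marks 0 and the dotted lines mark 2-fold. Mrc1 and Colec12 show the largest differences from BM lines, at 6.48 to 7.20, with the widest intervals, and Stab1 is the only filled point between YS and FL lines.

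Neither class B receptor was called in any comparison. Scarb1, the HDL receptor, was at 113.85, 49.41 and 42.29 TPM in the YS lines (68.5 ± 39.4, SD, n = 3), at 43.76, 71.00 and 49.38 in FL lines (54.7 ± 14.4) and at 49.84, 47.62 and 57.84 in BM lines (51.8 ± 5.38). YS line 1 alone was high, and all groups overlapped. The log2 differences of Scarb1 were 0.26 (95% interval -0.52 to 1.04, limma adjusted p = 0.59) for YS against BM lines, 0.05 (-0.73 to 0.84, 0.93) for FL against BM lines and 0.21 (-0.57 to 0.99, 0.72) for YS against FL lines, and their sign changed without YS line 1 or under other scalings.

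Scarb2, which encodes LIMP-2, was at 122.50, 173.08 and 306.24 TPM in the YS lines (201 ± 94.9, SD, n = 3), at 177.51, 145.47 and 166.87 in FL lines (163 ± 16.3) and at 239.27, 226.54 and 213.79 in BM lines (227 ± 12.7). Each FL line was below each BM line, and YS lines spanned both groups. The FL to BM difference was -0.47 ± 0.28 (95% interval -1.11 to 0.16, limma adjusted p = 0.28). With only those 6 libraries in the fit its adjusted p was 0.0139, at a size still under 2-fold. The other differences of Scarb2 were -0.28 (-0.91 to 0.36, limma adjusted p = 0.48) for YS against BM lines and 0.20 (-0.44 to 0.83, 0.68) for YS against FL lines. The ratio of Scarb2 to Scarb1 ran from 1.08 in YS line 1 to 7.24 in YS line 3, a wider range than in FL lines (2.05 to 4.06) or BM lines (3.7 to 4.8).

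Cd68 was the most abundant member in every line and was not called in any comparison. YS lines held 1018.47, 2256.36 and 2041.84 TPM (1770 ± 662, SD, n = 3), FL lines 2191.10, 2735.44 and 3447.86 (2790 ± 630) and BM lines 2228.65, 2466.50 and 2906.49 (2530 ± 344). YS line 1 was lowest, and each pair of groups overlapped. The log2 differences were -0.59 (95% interval -1.28 to 0.10, limma adjusted p = 0.17) for YS against BM lines, 0.12 (-0.56 to 0.81, 0.81) for FL against BM lines and -0.71 (-1.40 to -0.02, 0.18) for YS against FL lines. Cd68 ranked between 17 and 130 from the top of all genes.

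Cd163, the hemoglobin scavenger receptor, was the one member without a measurable level. It was listed at 0.00 in all YS and BM lines and at 0.00, 0.06 and 0.03 TPM in FL lines 1 to 3. It did not reach the filter and was not tested, and no fold change is given.

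The make-up of the receptor transcripts differed between the groups. Cd68 made up 78.8% to 87.4% of the summed TPM of the 8 members in BM lines, 45.2% to 69.4% in FL lines and 38.8% to 57.9% in YS lines. Without Cd68 the members summed to 1483 to 1661 TPM in the YS lines, 1520 to 3283 in FL lines and 419.9 to 665.5 in BM lines, so each embryonic line held more than each BM line. In all 3 BM lines Scarb2 was second after Cd68, while in the YS and FL lines the second place went to Colec12 (YS line 1, FL lines 1 and 2) or Msr1 (YS lines 2 and 3, FL line 3). Msr1 made up 11.9% to 14.5% of the sum in every YS and FL line, and Colec12 between 1.75% and 26.9%. FL line 2 held the highest level of all 9 lines for Mrc1, Colec12, Msr1 and Stab1.

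**Figure D3:**
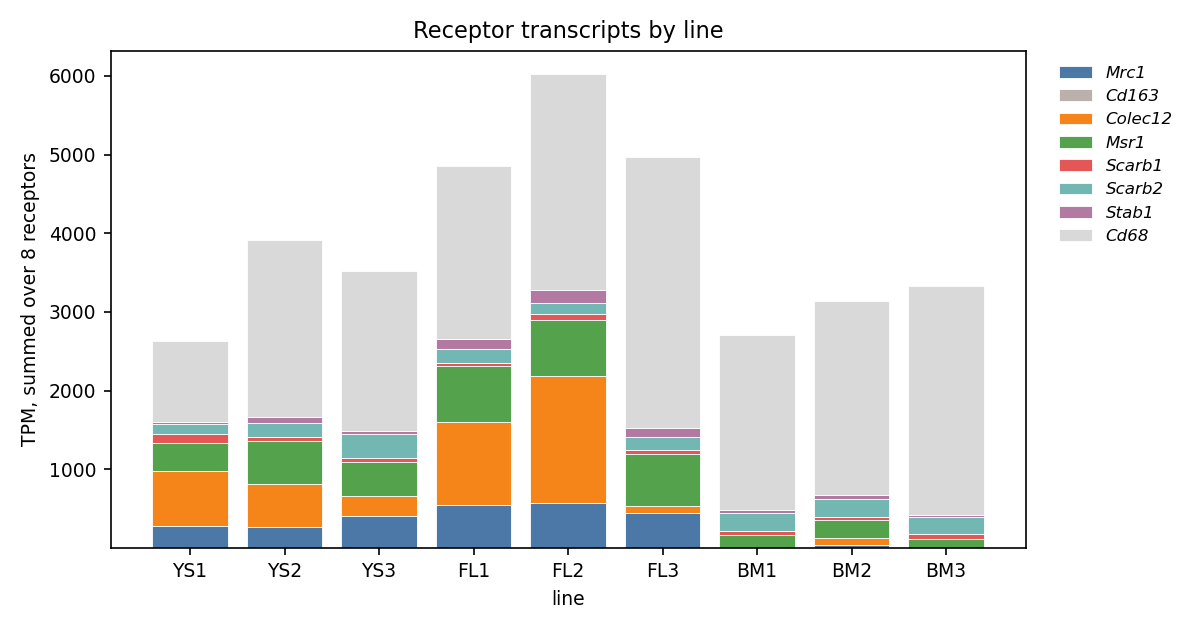
Summed TPM of the 8 receptors in each line (bars, from 0), divided by receptor. Totals run from 2624 TPM in YS line 1 to 6018 TPM in FL line 2, and the part other than Cd68 is smallest in the 3 BM lines, at 419.9 to 665.5 TPM.

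Other genes followed the same pattern over the 9 lines. Likeness was the mean absolute difference between centered log2(TPM + 1) values over the 9 libraries, a description with no test, since lines of 1 group share their origin. Nearest to Mrc1 were Tlr7 (0.77), which encodes an endosomal receptor for single-stranded RNA, Colec12 (0.91) and Cdkn1a (1.13), which encodes the cell cycle inhibitor p21. Tlr7 was at 96.37, 170.65 and 328.51 TPM in the YS lines, 128.80, 104.47 and 135.20 in FL lines, and 0.12, 19.61 and 0.04 in BM lines. Like Mrc1, it was above 10 TPM in only 1 BM line, BM line 2. Cdkn1a was at 23.98 to 83.47 TPM in the YS lines, 69.65 to 465.82 in FL lines and 0.00, 11.50 and 0.00 in BM lines. Fcrls, which encodes an Fc receptor-like protein, followed Colec12 less closely (1.77) and was at 0.22 TPM in YS line 1, where Colec12 was at 700.28.

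**Figure D4:**
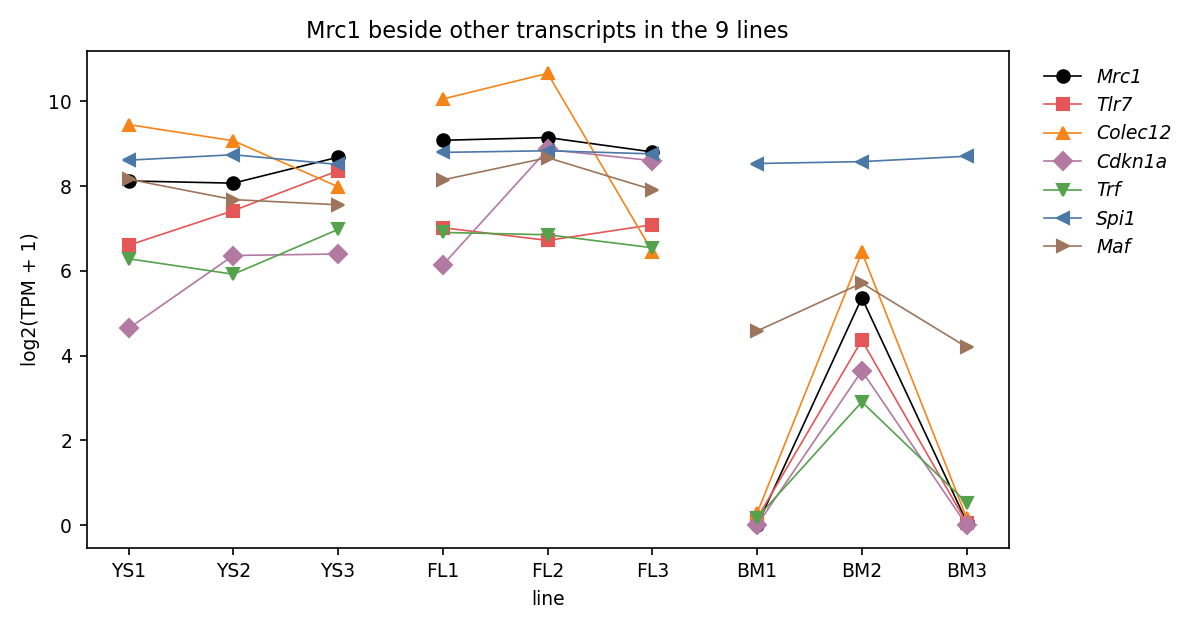
Log2(TPM + 1) (vertical axis) in each line (horizontal axis) of Mrc1, its 3 nearest genes by pattern (Tlr7, Colec12 and Cdkn1a), the transferrin gene Trf and the transcription factor genes Maf and Spi1, with lines joining values within a group for the eye only. All but Spi1 are lower in BM lines, and in BM line 2 all but Spi1 stand above BM lines 1 and 3.

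The nearest patterns to the other members differed less from them. Rnase4 (0.15), encoding a secreted ribonuclease, 4930486L24Rik (0.14) and Bend6 (0.15) were nearest to Msr1, and Rnase4 ran from 80.68 TPM in BM line 1 to 440.30 TPM in FL line 3. Trim47 (0.21), Nuak1 (0.23) and Slc7a15 (0.24) were nearest to Stab1, with Trim47 at 105.90 to 166.34 TPM in FL lines and 27.59 to 46.29 TPM elsewhere. Scarb1 was nearest to Pcyt2 (0.13), Fdps (0.15) and Numb (0.16). Fdps, an enzyme of isoprenoid and cholesterol synthesis, shared the high value of YS line 1, with 330.90 TPM there and 77.45 to 193.98 TPM in the other lines. Scarb2 was nearest to 4930503L19Rik (0.08), Trmt2b (0.09) and Cd53 (0.10), and Cd68 to Rnasek (0.10), Kif3a (0.12) and Wsb2 (0.12).

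Other scavenger receptors went in several directions. The counts of this and the following lists stand beside 12.8%, 10.3% and 3.79% of all genes called for YS against BM, FL against BM and YS against FL lines, and beside medians over all genes of 0.11, 0.09 and 0.02. Of 16 listed, 9 were tested (median log2 differences -0.47, -0.07 and -0.33, in that order), and 1 was called between YS and BM lines, lower in YS lines. The comparison of FL with BM lines called 2 as higher and 2 as lower in FL lines. That of YS with FL lines called 1 as higher and 1 as lower in YS lines. Cxcl16, which encodes SR-PSOX, a receptor for oxidized lipoprotein that is also a chemokine, was at 0.31, 0.21 and 0.41 TPM in FL lines. It was at 40.22, 122.13 and 100.82 TPM in the YS lines and 130.10, 105.19 and 98.03 TPM in BM lines, the reverse of Stab1, and differed by -6.41 ± 0.36 in FL against BM lines and 5.94 ± 0.36 in YS against FL lines (limma adjusted p = 5.1e-05 and 0.00015). Lrp1, a large receptor of the low-density lipoprotein receptor family, was lower in YS than in BM lines (-1.02 ± 0.11, limma adjusted p = 0.0013), a value so near 2-fold that the call was lost without YS line 1 or 3 or BM line 1 or 3.

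Marco, the class A receptor for bacteria and particles, was at 80.63, 678.32 and 464.26 TPM in FL lines. It was at 0.29, 61.80 and 4.14 TPM in the YS lines and 25.14, 30.45 and 9.21 TPM in BM lines, below every FL line. Its log2 differences were 3.86 ± 1.33 for FL against BM lines and -5.31 ± 1.33 for YS against FL lines (limma adjusted p = 0.076 and 0.059), and each call was lost without any 1 of several lines, FL lines 2 and 3 and BM line 1 among them in both. Cd5l, a secreted protein of the scavenger receptor cysteine-rich family, was at 9.95, 7.94 and 22.02 TPM in FL lines and 0.74, 2.22 and 0.96 TPM in BM lines (2.56 ± 0.78, limma adjusted p = 0.051), a call lost without FL line 3, BM line 1 or BM line 3. Cd36, the fatty acid and lipoprotein receptor, was at 12.09 TPM in YS line 1 and between 359.22 and 519.63 TPM in the other 8 lines. The 7 not tested, Olr1 and Stab2 among them, lay at 1.67 TPM or less. Of the other mannose receptor family genes and collectins, 0 of 9 were tested, and the highest value was 1.08 TPM, for Ly75 in YS line 3.

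**Figure D5:**
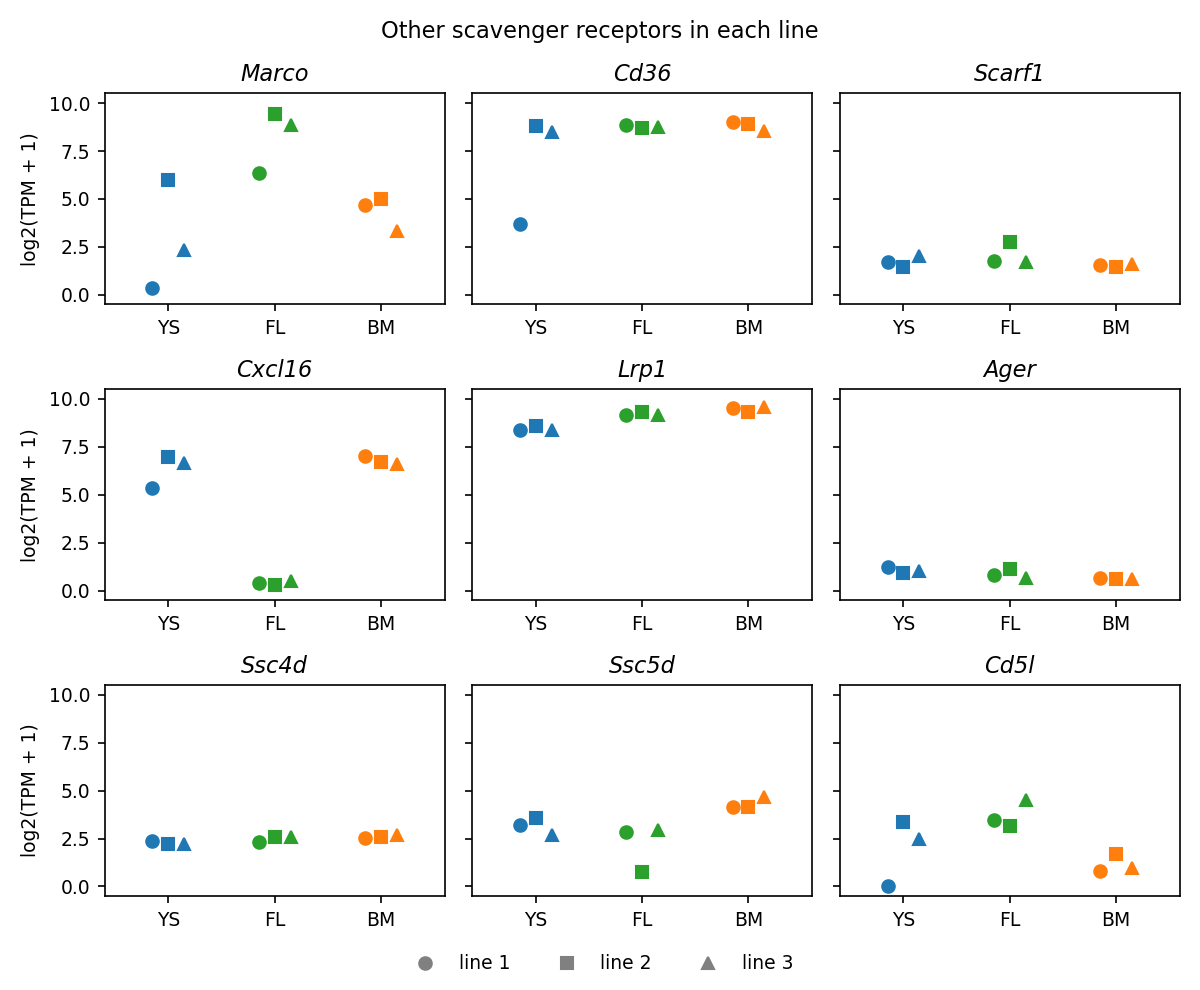
Log2(TPM + 1) (vertical axis) of the 9 other scavenger receptors that were tested, in each YS, FL and BM line (horizontal axis), with 1 marker per line. Cxcl16 lies at 0.41 TPM or less in all FL lines, Marco is highest in FL lines, and Cd36 is low in YS line 1 alone, at 12.09 TPM.

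Genes that work with the members were counted in the same way. Of 11 tested partners of SR-B1 in lipoprotein and cholesterol handling (medians -0.25, -0.06 and -0.19), 1 was higher and 2 lower in YS than in BM lines, 1 was lower in FL than in BM lines, and 0 were called by limma between YS and FL lines (2 at an unadjusted p under 0.05). Lipa, the lysosomal acid lipase, was at 143.70, 284.34 and 405.91 TPM in the YS lines, 261.33, 307.47 and 336.20 in FL lines and 999.76, 921.31 and 1019.57 in BM lines (-1.94 ± 0.32 for YS and -1.70 ± 0.32 for FL against BM lines, limma adjusted p = 0.0047 and 0.0075). Npc1, which exports cholesterol from the lysosome, was lower in YS than in BM lines (-1.36 ± 0.13, limma adjusted p = 0.00065). Apoe was higher there (1.07 ± 0.21, adjusted p = 0.0092), a call lost under both other scalings and without YS line 1.

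Of 9 tested genes of the LIMP-2 cargo and lysosomal membrane list (medians -0.27, 0.24 and -0.27), 1 was called in each comparison with BM lines, and 0 were called by limma between YS and FL lines (2 at an unadjusted p under 0.05). That gene was Lgmn, a lysosomal cysteine protease, at 609.41 to 903.11 TPM in the YS lines, 776.64 to 1144.77 in FL lines and 57.10 to 180.31 in BM lines (2.76 ± 0.39 and 2.98 ± 0.39, limma adjusted p = 0.0029 and 0.0017).

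Most genes that handle hemoglobin and iron downstream of CD163 passed the filter, which Cd163 did not, and the haptoglobin gene Hp, at 1.21 TPM or less, did not either. Of 11 tested (medians -0.51, 0.23 and -0.61), 1 was higher and 2 lower in YS than in BM lines, 2 were higher and 1 lower in FL than in BM lines, and 2 were lower in YS than in FL lines. Trf, the plasma iron carrier transferrin, was at 77.13, 59.67 and 125.22 TPM in the YS lines, 119.18, 114.68 and 92.57 in FL lines and 0.13, 6.52 and 0.45 in BM lines (5.19 ± 0.63 and 5.56 ± 0.63, limma adjusted p = 0.0018 and 0.0011). It shared with Mrc1 the higher value of BM line 2, and without that line its differences were 6.04 and 6.41. Fth1, the ferritin heavy chain, was lower in YS and FL than in BM lines (-1.13 ± 0.25 and -1.55 ± 0.25, limma adjusted p = 0.013 and 0.0039), the first call being lost without YS line 1 or with quantile normalization. Slc40a1, the iron exporter ferroportin, was higher in FL than in BM lines (1.57 ± 0.37, limma adjusted p = 0.02). Between YS and FL lines, Hmox1, which degrades heme, and Slc48a1, a heme transporter, were lower in YS lines (-1.48 ± 0.40 and -1.16 ± 0.21, limma adjusted p = 0.07 and 0.026). The Hmox1 call was lost without any 1 of 7 lines, YS line 2 and FL line 1 being the exceptions, and the Slc48a1 call without YS line 3.

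Of 24 tested endocytosis genes (medians 0.19, 0.44 and -0.40), 2 were higher and 1 lower in YS than in BM lines, 5 higher and 1 lower in FL than in BM lines, and 0 were called by limma between YS and FL lines (14 at an unadjusted p under 0.05). Dab2, a clathrin adaptor, was at 1070.89 to 1112.33 TPM in the YS lines, 862.46 to 1240.72 in FL lines and 395.70 to 558.43 in BM lines. Its difference for YS against BM lines was 1.30 ± 0.17 (limma adjusted p = 0.0024). Clta, a clathrin light chain, was higher in YS and FL than in BM lines (1.12 ± 0.12 and 1.41 ± 0.12, limma adjusted p = 0.0012 and 0.00043). Ehd1, a gene of endosomal recycling, was lower (-1.39 ± 0.15 and -1.46 ± 0.15, limma adjusted p = 0.0013 and 0.00075). Eps15, a scaffold of clathrin-coated pits, was higher in FL than in BM lines (1.40 ± 0.19, limma adjusted p = 0.0022). Among 5 tested genes of receptor shedding (medians -0.33, -0.11 and 0.06), 0 were called by limma in the 3 comparisons (2, 2 and 1 at an unadjusted p under 0.05), and Adam17, the protease that sheds CD163, lay between 110.64 and 165.80 TPM in all lines.

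Of 14 tested transcription factors known to act on macrophage receptor genes (medians -0.09, 0.35 and -0.29), 2 were higher and 2 lower in YS than in BM lines, 5 higher and 1 lower in FL than in BM lines, and 1 lower in YS than in FL lines. Spi1, which encodes PU.1, whose core letters are marked in the promoters above, lay between 364.14 and 456.06 TPM in all lines and was not called. Maf was at 285.82, 204.59 and 187.92 TPM in the YS lines, 282.99, 407.21 and 241.02 in FL lines and 22.99, 51.44 and 17.44 in BM lines. It was 2.97 ± 0.37 and 3.41 ± 0.37 higher than in BM lines (limma adjusted p = 0.002 and 0.00099). Irf8 was higher in YS than in BM lines (1.54 ± 0.26, limma adjusted p = 0.0048). The FL lines, at 50.17 to 58.65 TPM of Irf8, also lay above the BM lines, at 20.78 to 28.47 TPM. Irf4 was higher in FL than in BM lines (1.68 ± 0.40, limma adjusted p = 0.019), where the FL lines held 0.75 to 3.82 TPM. The YS lines, at 0.49 to 1.60 TPM of Irf4, also lay above the BM lines, at 0.03 TPM or less. Pparg, a lipid-activated nuclear receptor, was lower in YS and FL than in BM lines (-2.57 ± 0.73 and -2.38 ± 0.73, limma adjusted p = 0.032 and 0.052). The first of these calls was lost without BM line 1, and the second without FL line 2, FL line 3 or any 1 BM line. Klf4 was lower in YS than in FL lines (-1.51 ± 0.44, limma adjusted p = 0.083), a call lost without any 1 line but YS lines 2 and 3.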

How the data were processed

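Poly(A)-selected, strand-specific libraries of 3 YS, 3 FL and 3 BM lines were sequenced as 75 nt single-end reads. One table was deposited by the authors, holding TPM per gene symbol, given to 2 decimals. The submitters' processing notes name Trim Galore 0.6.6, STAR 2.7.9a and RSEM 1.3.3, and the genome build and annotation are not given in the sources used here. The study's own test used raw read counts, which were not used here. Depth is unknown from TPM. Groups and line numbers came from the sample labels. Values were tested as log2(TPM + 1) with limma 3.58.1 in R 4.3.3 (all 9 libraries, intensity trend, Benjamini-Hochberg adjustment over the 11753 genes that reached 1 TPM in 3 or more libraries), and the fit was tested on simulated data. With 3 lines against 3, an exact permutation test cannot go below p = 0.1. Members and lists were chosen with earlier results of these data known. Named genes are the members, the 3 genes of each list with the largest called difference and no overlap between groups, and the 3 genes nearest to each member in pattern, among genes whose SD over the libraries was at least 0.8 times that of the member. Cd36, Hp, Adam17, Spi1, Olr1, Stab2, Ly75 and the marker genes named singly were chosen after their values were seen. Promoters came from RefSeq (GRCm38.p6), and 5 of 8 members matched and were used. The alternatives changed the pseudocount, filter, scaling, trend, thresholds and libraries, or added a replicate block.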

Additional observations from a re-analysis of the deposited data

How the results depend on the processing

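The counts of members called, 3 between YS and BM lines and 4 between FL and BM lines, were the same under all 20 alternatives. Between YS and FL lines the count of 1 became 0 when only those groups were fitted, and it ranged from 0 to 1 with single lines left out. Members that were never called changed sign in places. Without YS line 1, Scarb1 and Scarb2 stood at -0.17 and 0.02 between YS and BM lines and Scarb1 at -0.22 between YS and FL lines (with single lines left out, up to 0.53, down to -0.63, and up to 0.48). Scarb1 between FL and BM lines was -0.04 with quantile normalization, -0.04 with median-of-ratios scaling, -0.15 without FL line 2 and -0.00 without BM line 2. Cd68 between FL and BM lines was -0.04 without FL line 3 (range up to 0.29), and Scarb2 between YS and FL lines -0.16 without YS line 3 (up to 0.50). Colec12 between YS and FL lines was 0.20 without YS line 3, 0.28 without FL line 1 and 0.58 without FL line 2, with -1.52 without FL line 3 at the other end.

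Over all genes 1504, 1211 and 446 were called (YS against BM, FL against BM, YS against FL lines). Without the fold threshold these were 4455, 3247 and 1500, and over all alternatives the lowest were 1031, 843 and 81, the last with only YS and FL lines fitted. Median-of-ratios scaling moved the median of all genes from 0.11 to 0.00 between YS and BM lines, 0.09 to 0.00 between FL and BM lines, and changed no call among the members. Over the alternatives, in the same order, other scavenger receptors gave 0 to 2, 2 to 4 and 1 to 3 calls, SR-B1 partners 2 to 5, 1 to 3 and 0 to 2, the LIMP-2 list 1 to 3, 1 to 3 and 0 to 2, the hemoglobin list 2 to 6, 2 to 3 and 0 to 4, shedding 0 to 2, 0 to 2 and 0, endocytosis 3 to 12, 5 to 14 and 0 to 10, and transcription factors 2 to 6, 3 to 7 and 0 to 3. The highest of these came mostly without the fold threshold.

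The lines share numbers in the labels, and the deviations of same-numbered lines were hardly correlated (-0.12 to 0.09). With 3 lines a group, a value over all genes cannot tell whether some lines shared handling, and the main fit used no pairing. With the replicate number as a block, 1503, 1191 and 409 genes were called, and the members called were 3, 4 and 1. TPM carries no depth, so a gene listed at 0, as Cd163 was, has no detection limit here, and reads shared between similar genes cannot be judged.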
